A study of Mus musculus with 27 samples.

Results

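The 9 genes described here are the neighbours of a deleted enhancer on mouse chromosome 7. They are Ifitm10, Ctsd, Lsp1 and H19 on the H19 side of the deletion, and Ins2, Ascl2, Tspan32, Cd81 and Tssc4 on the Igf2 side. They were taken by name from the 52636 gene rows of the count tables, and 61 annotated genes lie within 1 Mb of the deleted fragment. Igf2, which lies next to the fragment, and Th, which encodes the rate-limiting enzyme of dopamine synthesis, were left out of the set. Igf2 serves only as a reference below.

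RNA was sequenced from frontal cortex and striatum of adult mice about 2.5 months old on the 129S1 background. Igf2enh-/- mice are homozygous for the loss of the enhancer fragment and keep a loxP site at that place, because the selection cassette was removed by a cross to an Hprt-CRE mouse. Wild-type mice carry the intact fragment. Frontal cortex had 6 wild-type and 6 Igf2enh-/- libraries, each with 3 females and 3 males. Striatum had 7 wild-type libraries (3 females, 4 males) and 8 Igf2enh-/- libraries (4 females, 4 males). The labels do not say which libraries came from the same mouse. Both brain regions are mixtures of cell types, so fewer cells of a type and less RNA per cell cannot be told apart.

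Part of the segment belongs to a cluster of imprinted genes, in which some genes are read mainly from the maternal or the paternal copy. H19 is a maternally expressed noncoding RNA, Igf2 encodes a growth factor that is paternally expressed in many tissues, and both use enhancers in the DNA around them. Ascl2, Tspan32, Cd81 and Tssc4 lie toward the neighbouring Kcnq1 domain, where imprinting is best known in the placenta. The counts were not split by parental copy.

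The deleted fragment spans 4920 bp, at chr7:149796331-149801250 of NCBIM37 (mm9). Its 2 ends are shown to fix where the neighbours are measured from, with the deleted bases in capitals and the retained bases in lower case. The sequence is that of the reference genome, not of the 129S1 mice.
H19-side end: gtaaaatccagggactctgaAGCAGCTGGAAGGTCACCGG
Igf2-side end: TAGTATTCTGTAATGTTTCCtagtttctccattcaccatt
The 3 genotyping primers matched the same build. The wild-type primer, in capitals because all its bases lie within the deleted fragment, has no site in the Igf2enh-/- allele.
IGKOCreWTL: ttggtgtagcaccctgtaaccc
IGKOwtU: TAGGGGTCCTGAAGACGTCAG
IGKOCrerecU: cggaatgtttgtgtggagagca

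H19 (minus strand, chr7:149761434-149764048) is the closest of the 9, at 32283 bp from the fragment. Ins2, which encodes insulin (minus strand, chr7:149864561-149885415), lies 63311 bp away on the other side, beyond Igf2. Lsp1 (plus strand, chr7:149646714-149680772) is 115559 bp away. Ctsd (minus strand, chr7:149557053-149573943) and Ifitm10 (minus strand, chr7:149511742-149559658) are 222388 and 236673 bp away and overlap each other on the same strand, so reads in the shared stretch cannot be assigned with certainty. On the far Igf2 side, Ascl2 (minus strand, chr7:150152727-150155169) is 351477 bp away and Tspan32 (plus strand, chr7:150190951-150205549) is 389701 bp away. Cd81 (plus strand, chr7:150238644-150253839) and Tssc4 (plus strand, chr7:150255154-150256998) are 437394 and 453904 bp away. Lsp1, Tspan32, Cd81 and Tssc4 overlap annotated genes of the opposite strand, and whether the counting used strand is not given in the sources used here.

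Total counts ranged from 23686945 to 33926904 per library. The labelled regions held against their markers, since the summed level of 8 medium spiny neuron markers was 3056 to 8437 CPM (read counts scaled to library size) in striatum and 125 to 195 CPM in frontal cortex. Library 15, from an Igf2enh-/- female striatum, stood apart with 4732 CPM of 12 choroid plexus markers, where no other library of striatum passed 375 CPM. Library 20, from a wild-type male striatum, had the highest sum of cortical projection neuron markers in striatum (2591 CPM) and the lowest of medium spiny neuron markers (3056 CPM). Library 1, from an Igf2enh-/- female frontal cortex, had 965 CPM of 8 oligodendrocyte markers, where the other cortex libraries had 1453 to 2065 CPM, and the lowest sums of cortical projection neuron, medium spiny neuron and choroid plexus markers in that region.

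5 of the 9 neighbours, Ifitm10, Ctsd, Lsp1, Cd81 and Tssc4, had at least 1 CPM in every library of both regions and were tested with all other such genes. H19, Ins2, Ascl2 and Tspan32 did not. None of the 5 was called in either region by edgeR's quasi-likelihood test with genotype and sex in the model and Benjamini-Hochberg adjustment, where 53 of 13936 genes (0.38%) were called in frontal cortex and 5 of 13875 (0.036%) in striatum. At an unadjusted p under 0.05 the count was 1 of 5 in each region, against 13.5% of all genes in frontal cortex and 10% in striatum. That gene was Lsp1 in both. In frontal cortex no neighbour was called by edgeR's likelihood ratio test, which called 1.66% of all genes, or by DESeq2, which called 1.74%. In striatum both tests called Lsp1. The genotype groups of all 9 neighbours overlapped in both regions, where 1.29% of tested genes in frontal cortex and 0.202% in striatum had groups that did not overlap. The median log2 fold change of the 5 was -0.05 in frontal cortex and -0.04 in striatum, beside medians of 0.00 over all genes tested.

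**Figure D1:**
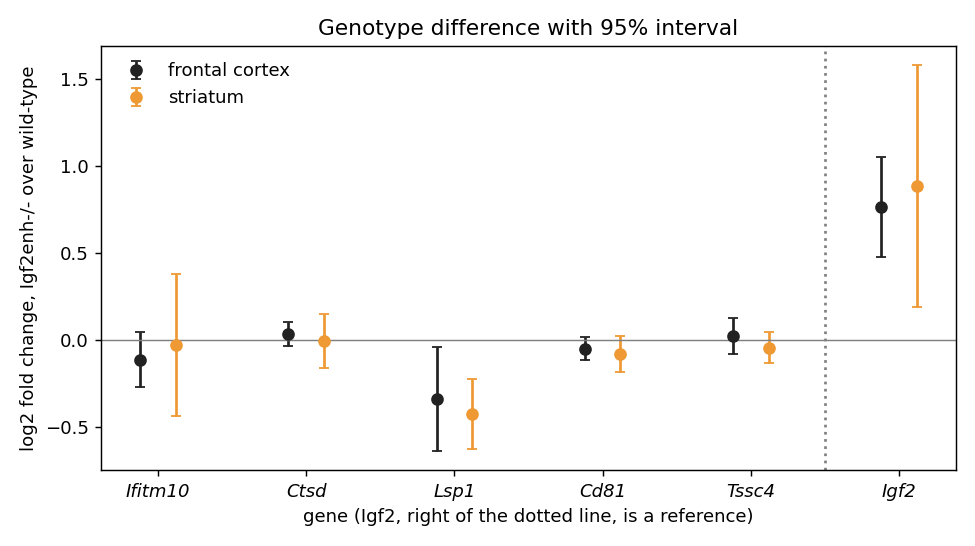
Log2 fold change of Igf2enh-/- over wild-type mice (vertical axis) for the 5 neighbours past the filter and Igf2 as reference, in frontal cortex (black) and striatum (orange), where points are estimates of the edgeR fit and bars are 95% intervals. Among the neighbours the interval excludes 0 for Lsp1 alone, which lies below 0 in both regions, while Igf2 lies above 0 in both.

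Lsp1 encodes lymphocyte-specific protein 1, an actin-binding protein of leukocytes and endothelium. In striatum, its 7 wild-type libraries ran from 3.55 to 4.85 CPM with a median of 4.69, and the 8 Igf2enh-/- libraries from 2.65 to 3.84 CPM with a median of 3.39. All 8 Igf2enh-/- libraries were below the wild-type median and 6 of 7 wild-type libraries were above every Igf2enh-/- library, so the groups met only at wild-type library 14. The means were 4.49 ± 0.48 (SD, n = 7) and 3.34 ± 0.42 CPM (SD, n = 8), a difference of -25.7% relative to wild-type. On the log2 scale the fitted change was -0.42 (SE 0.09, 95% interval -0.62 to -0.22), with an unadjusted p of 0.000406 that ranked 39 of 13875 genes and an adjusted p of 0.135 by the quasi-likelihood test. The likelihood ratio test gave an adjusted p of 0.0241, where 0.404% of all genes were called, and DESeq2 gave 0.0145, where 0.807% were called. A two-sided exact permutation test of the mean log2(CPM + 0.5), over 6435 assignments, gave p = 0.0014, unadjusted for the 18 such tests over 9 genes and both regions.

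In frontal cortex the wild-type libraries of Lsp1 ran from 2.87 to 5.95 CPM with a median of 4.19, and the Igf2enh-/- libraries from 2.97 to 3.78 CPM with a median of 3.41. The groups overlapped: wild-type library 4 was below all Igf2enh-/- libraries and 4 of 6 wild-type libraries were above all of them. The means were 4.30 ± 1.04 and 3.40 ± 0.29 CPM (SD, n = 6 each), so the wild-type mice varied more. The log2 fold change was -0.34 (SE 0.14, 95% interval -0.64 to -0.04), with an unadjusted p of 0.0308 and an adjusted p of 0.313 by edgeR's quasi-likelihood test. The exact permutation test gave p = 0.0671 over 924 assignments, of which the smallest possible p is 0.00216. Without library 12, the highest wild-type library, the log2 fold change was -0.23 (adjusted p = 0.524 by edgeR) and the exact permutation p was 0.141. Without library 4, the lowest, it was -0.43 (adjusted p = 0.205 by edgeR) and the exact permutation p was 0.00433.

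The difference between the regions in the genotype effect on Lsp1 was -0.09 on the log2 scale (95% interval -0.43 to 0.25), with an unadjusted p of 0.586. An unadjusted p under 0.05 with a lower level in Igf2enh-/- mice in both regions was seen in 246 of 13414 genes (1.83%), Lsp1 among them; tissue of both regions may come from the same mice. In frontal cortex, the log2 fold change of Lsp1 was -0.57 (SE 0.17) in males and -0.08 (SE 0.17) in females. That difference between the sexes did not pass the test (-0.49, SE 0.26, adjusted p = 0.763 by edgeR), where 0.0215% of all genes were called. In striatum the values were -0.41 (SE 0.14) in males and -0.44 (SE 0.14) in females, and no gene was called for a difference between the sexes (0% of 13875, edgeR), with 355 at an unadjusted p under 0.05.

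**Figure D2:**
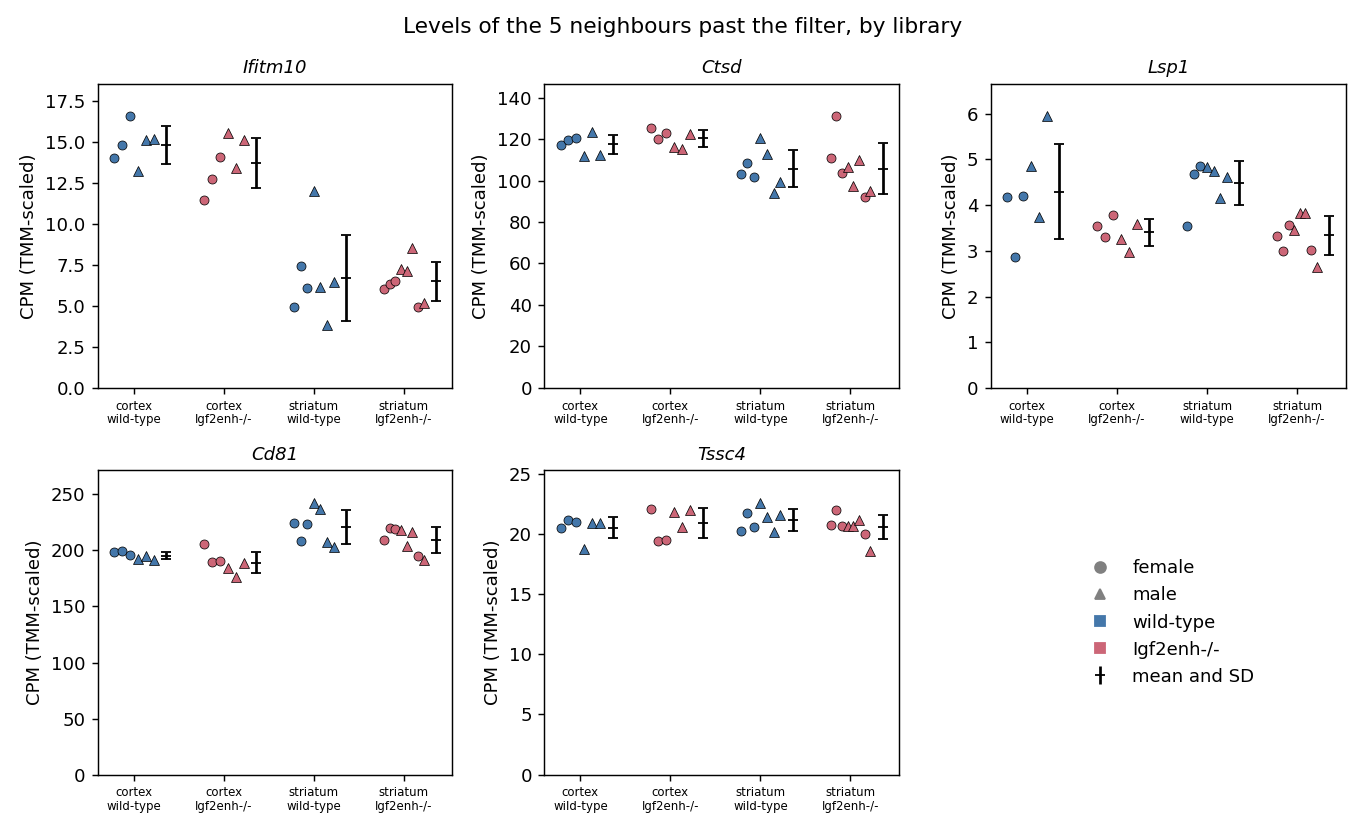
Level in CPM (vertical axis, from 0) of the 5 neighbours past the filter in each library, with females as circles and males as triangles, wild-type in blue and Igf2enh-/- in red, and black bars for the mean and SD. The genotypes overlap in every panel. In the Lsp1 panel the striatal Igf2enh-/- libraries lie at 2.65 to 3.84 CPM, and all striatal wild-type libraries but 1 lie above them.

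Because Lsp1 is known from leukocytes, marker sums of immune cells were set beside it. The 12 microglia markers summed to 420 to 538 CPM in wild-type striatum and 447 to 531 CPM in Igf2enh-/- striatum, and to 386 to 441 and 386 to 431 CPM in frontal cortex. None of the 11 markers tested in striatum or the 12 in frontal cortex was called by edgeR. An unadjusted p under 0.05 was seen in 1 and 6 of them, beside 10% and 13.5% of all genes. Log2 fold changes were positive for 4 of 11 in striatum and 8 of 12 in frontal cortex. The 10 markers of macrophages and other leukocytes summed to 13.7 to 16.3 CPM in wild-type and 14.5 to 19.3 CPM in Igf2enh-/- striatum, with medians of 14.7 and 16.3 CPM. In frontal cortex they summed to 15.8 to 27.4 CPM and 20.4 to 27.4 CPM, with medians of 19.8 and 25.9 CPM. Log2 fold changes were positive for 4 of 5 tested in striatum and 5 of 6 in frontal cortex. None was called by edgeR, and 0 and 2 had an unadjusted p under 0.05. Their part in the Lsp1 values was not tested. None of the 8 endothelial markers was called by edgeR in either region, and 4 of 8 had an unadjusted p under 0.05 in each. Log2 fold changes were positive for 4 of 8 in striatum and 3 of 8 in frontal cortex. Their sums were 259 to 333 CPM and 266 to 304 CPM in striatum, and 247 to 304 CPM and 260 to 299 CPM in frontal cortex. The 8 oligodendrocyte markers summed to 4838 to 10614 CPM in wild-type and 5022 to 6489 CPM in Igf2enh-/- striatum, and to 1549 to 2065 CPM and 965 to 2062 CPM in frontal cortex. All 8 had negative log2 fold changes in both regions, with medians of -0.31 in striatum and -0.19 in frontal cortex, and 2 and 1 of them had an unadjusted p under 0.05 without being called by edgeR. The 5 cortical projection neuron markers tested in striatum also had negative log2 fold changes, with a median of -0.29 and none under an unadjusted p of 0.05. The part of these markers in the Lsp1 result was not tested.

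**Figure D3:**
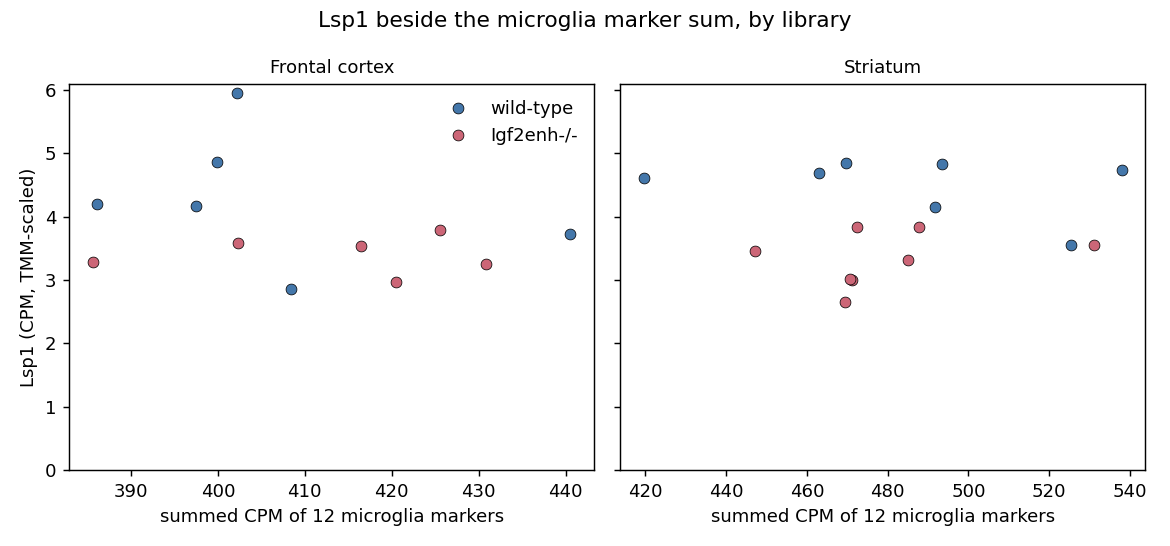
Lsp1 in CPM (vertical axis) against the summed CPM of 12 microglia markers (horizontal axis) for each library, by brain region, with wild-type in blue and Igf2enh-/- in red. In striatum the Igf2enh-/- libraries lie at 447 to 531 CPM of the markers, within the wild-type range of 420 to 538 CPM.

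Neither of the other H19-side genes past the filter was called. Ctsd encodes cathepsin D, a lysosomal protease. In frontal cortex it was at 117 ± 4.57 CPM in wild-type and 120 ± 4.04 CPM in Igf2enh-/- mice (SD, n = 6 each), and the 95% interval of the fold was 0.977 to 1.07. In striatum it was at 106 ± 8.89 CPM (SD, n = 7) and 106 ± 12.3 CPM (SD, n = 8), with an interval of 0.896 to 1.11. The highest striatal value, 131 CPM, was that of library 15. By edgeR neither region gave a call (adjusted p = 0.670 and 0.992).

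Ifitm10 belongs by sequence to a family of interferon-induced transmembrane proteins. It was at 14.8 ± 1.13 CPM in wild-type and 13.7 ± 1.52 CPM in Igf2enh-/- frontal cortex (SD, n = 6 each), with overlapping groups and a fold interval of 0.829 to 1.03. Its log2 fold change there was -0.24 (SE 0.10) in females and 0.02 (SE 0.09) in males, a difference that did not pass the test (0.26, SE 0.14, adjusted p = 0.763 by edgeR). In striatum the wild-type libraries spread from 3.83 to 12.0 CPM and the Igf2enh-/- libraries from 4.90 to 8.52 CPM, and the interval of the fold was correspondingly wide, at 0.741 to 1.30. The 12.0 CPM was library 20, which also held the most cortical neuron markers in striatum. The part of those markers in the Ifitm10 value was not tested. Without library 20 the log2 fold change in striatum was 0.16 in place of -0.03, and without library 24, the lowest wild-type library, it was -0.13. Neither region gave a call by edgeR (adjusted p = 0.541 and 0.980).

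On the Igf2 side, Cd81 encodes a tetraspanin of the cell surface. It was at 195 ± 3.17 CPM in wild-type and 189 ± 9.44 CPM in Igf2enh-/- frontal cortex (SD, n = 6 each), where 5 of 6 Igf2enh-/- libraries were below all wild-type libraries and library 1 was above all of them. The log2 fold change was -0.05 (SE 0.03, adjusted p = 0.512 by edgeR). The exact permutation test gave p = 0.152. Without library 1 the difference was -0.07 and the exact permutation test gave p = 0.00216. That is the smallest p it can give, and it follows from removing the only Igf2enh-/- library above the wild-type libraries. The exact permutation test gave p = 0.149 to 0.299 when any other cortex library was left out. Without library 1 edgeR gave an adjusted p of 0.275. In striatum Cd81 was at 221 ± 15.2 CPM (SD, n = 7) and 209 ± 11.3 CPM (SD, n = 8), with a log2 fold change of -0.08 (SE 0.05, adjusted p = 0.644 by edgeR). All 8 Igf2enh-/- libraries were below the wild-type median there, and the groups overlapped.

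Tssc4, a neighbour of Cd81 whose protein takes part in assembling the splicing machinery, was at 20.5 ± 0.90 CPM in wild-type and 20.9 ± 1.25 CPM in Igf2enh-/- frontal cortex (SD, n = 6 each). In striatum it was at 21.2 ± 0.90 CPM (SD, n = 7) and 20.6 ± 0.97 CPM (SD, n = 8). The fold intervals were 0.946 to 1.09 and 0.913 to 1.03, and those of Cd81 were 0.925 to 1.01 and 0.882 to 1.02. Library 8 was the lowest wild-type cortex library, at 18.8 CPM.

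The 4 genes under the filter were read so rarely that their raw counts are the data. Rates below are group sums in CPM of all counted reads with exact Poisson 95% intervals, and ratios carry exact conditional 95% intervals; both cover counting error only. H19 had 0, 1 or 2 reads in each frontal cortex library, summing to 6 in wild-type and 4 in Igf2enh-/- mice. In striatum it had 0 to 3 reads per wild-type library and 0 to 5 per Igf2enh-/- library, summing to 6 and 9. The rates in frontal cortex were 0.0374 (0.0137 to 0.0814) and 0.0249 (0.00678 to 0.0637) CPM, and the ratio was 0.665 (0.138 to 2.81). In striatum the ratio was 1.30 (0.414 to 4.45), and 0.658 (0.137 to 2.78) without library 15, which held 5 of the 9 Igf2enh-/- reads. No difference in H19 was detected in either region, and changes within these intervals could not have been told from none at this depth.

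Ins2 had no read in any of the 12 frontal cortex libraries, which allows up to 0.0187 CPM in each genotype group (3 counts of the group total). In striatum 4 reads fell in wild-type libraries, 3 in library 14 and 1 in library 26. Among Igf2enh-/- striatal libraries 19 reads were counted, 17 in library 15 and 2 in library 13. The ratio was 4.13 (1.37 to 16.7) with library 15 and 0.494 (0.0446 to 3.44) without it. Library 15 also had 3123 CPM of Ttr, the transthyretin of choroid plexus, while every other library of striatum had 5.54 to 108 CPM, and the part of that tissue in the Ins2 reads was not tested.

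Ascl2, a basic helix-loop-helix transcription factor of the placenta and of intestinal stem cells, had 0 to 7 reads per library, with sums of 17 and 23 in frontal cortex and 18 and 29 in striatum for wild-type and Igf2enh-/- mice. The ratios were 1.35 (0.690 to 2.69) and 1.40 (0.752 to 2.68). Tspan32, a tetraspanin of blood cells, also had 0 to 7 reads per library, with sums of 13 and 19 in frontal cortex and 18 and 29 in striatum. Its ratios were 1.46 (0.683 to 3.21) and 1.40 (0.752 to 2.68). All 4 intervals include 1, and the genotype groups overlapped in both regions.

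**Figure D4:**
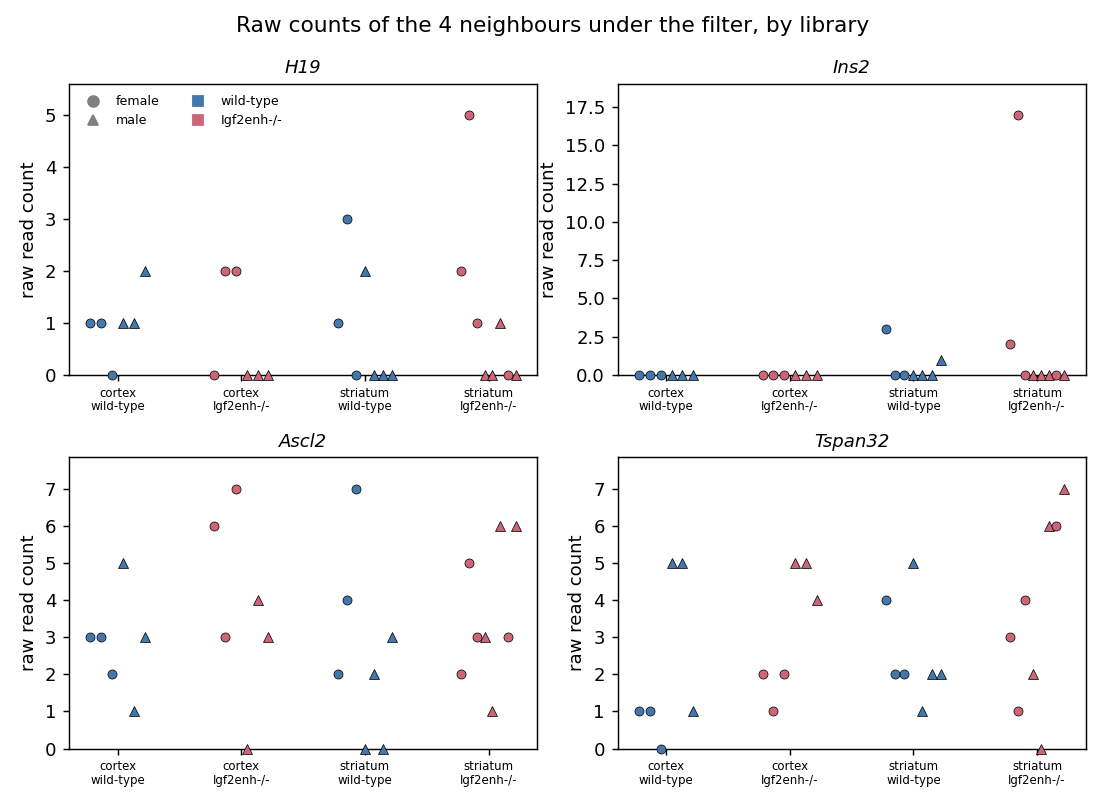
Raw read count per library (vertical axis, from 0) of H19, Ins2, Ascl2 and Tspan32, with females as circles, males as triangles, wild-type in blue and Igf2enh-/- in red. No library passes 7 reads in any panel except the 17 Ins2 reads of library 15.

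Per kilobase of exon the order of levels was the same for the first 5 genes in all 4 groups. In wild-type frontal cortex, Cd81 came first at 86.1 ± 1.40 CPM per kb (SD, n = 6), followed by Ctsd at 46.6 ± 1.81, Tssc4 at 11.7 ± 0.51, Ifitm10 at 3.09 ± 0.24 and Lsp1 at 0.831 ± 0.20. The ranges of these neighbours in the order did not overlap in that group. In wild-type striatum the values were 97.3 ± 6.69 CPM per kb for Cd81, 42.0 ± 3.53 for Ctsd, 12.0 ± 0.51 for Tssc4, 1.40 ± 0.54 for Ifitm10 and 0.868 ± 0.09 for Lsp1 (SD, n = 7), and only the ranges of Ifitm10 and Lsp1 overlapped. Ascl2, Tspan32, H19 and Ins2 were at most 0.111 CPM per kb in every group mean, and their ranges overlapped. With the longest transcript as the length, Lsp1 stood at 1.61 CPM per kb in wild-type frontal cortex and 1.68 in wild-type striatum, and the first 5 kept their order.

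Between the regions, in wild-type mice, Ifitm10 was lower in striatum than in frontal cortex (log2 difference -1.19, SE 0.16, adjusted p = 4.37e-07 by edgeR). Ctsd was lower too (-0.17, SE 0.06, adjusted p = 0.0148), and Cd81 was higher (0.15, SE 0.04, adjusted p = 0.00252). So 3 of the 5 were called, where 67.7% of the 13414 genes tested in both regions were called. Lsp1 differed by 0.03 (95% interval -0.21 to 0.27) and Tssc4 by 0.02 (-0.07 to 0.11), and neither was called. No genotype effect differed between regions by edgeR for any of the 5, and 0 of 13414 genes (0%) were called in that test, with 405 at an unadjusted p under 0.05.

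Over the wider locus, 21 of 66 listed genes passed the filter in each region. In frontal cortex 1 of 21 was called, beside 0.38% of all genes, and in striatum none was, beside 0.036%. The call was Igf2, which rose (log2 fold change 0.77, SE 0.13, adjusted p = 0.0285 by edgeR), and it was lost without any 1 of libraries 4, 6, 8, 9, 10, 11 and 12 (adjusted p = 0.0567 to 0.0776). The 12 meningeal fibroblast markers summed to 102 to 215 CPM in wild-type and 145 to 217 CPM in Igf2enh-/- frontal cortex. Log2 fold changes were positive for 11 of the 12 (median 0.26). An unadjusted p under 0.05 was seen in 6, beside 13.5% of all genes, and none was called by edgeR. In striatum 8 of 9 tested were positive (median 0.15), and library 15 had the highest sum, 118 CPM. The part of these markers in the Igf2 values was not tested. In striatum the genotype groups of 0.202% of tested genes did not overlap, Igf2 among them. All 8 Igf2enh-/- libraries were above all 7 wild-type libraries for Igf2, with 46.7 to 62.4 CPM in 7 of them and 265 CPM in library 15. Wild-type Igf2 ran from 34.5 to 44.7 CPM. The log2 fold change there was 0.89 (SE 0.33, adjusted p = 0.386 by edgeR) with library 15. Without that library, which was left out after seeing the data, it was 0.46 (SE 0.06, adjusted p = 0.00899), beside 0.0288% of all genes called, and the means were 38.7 ± 3.87 and 53.1 ± 5.65 CPM (SD, n = 7 each). At an unadjusted p under 0.05 there were 3 of 21 in frontal cortex, Igf2, Lsp1 and R74862, and 2 of 21 in striatum, Igf2 and Lsp1, shares near those of all genes (13.5% and 10%). R74862, on the strand opposite to Cd81, is named because its value was seen, and it had a log2 fold change of 0.20 (SE 0.08) in frontal cortex and 0.10 (SE 0.10) in striatum. The median over the 21 was 0.03 and -0.01, beside 0.00 over all genes. Within 1 Mb on the H19 side, 10 genes were tested in each region, and Lsp1 had the lowest log2 fold change in both.

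**Figure D5:**
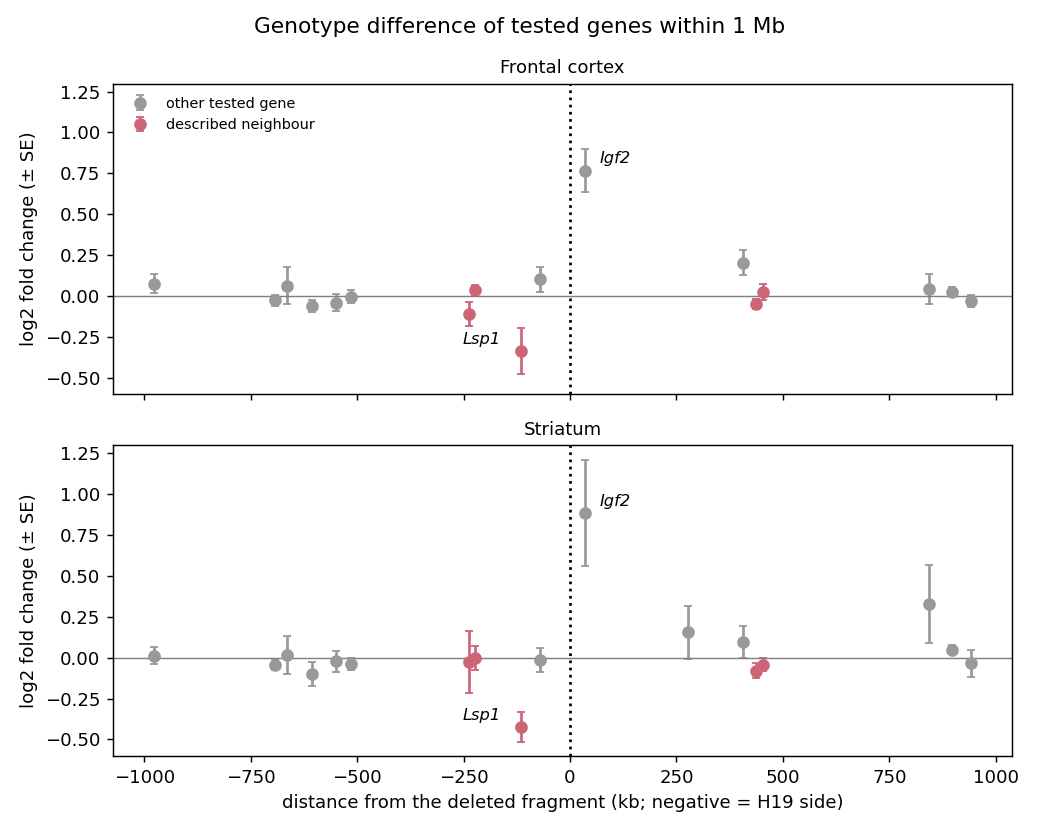
Log2 fold change of Igf2enh-/- over wild-type mice (vertical axis, bars are SE) against distance from the deleted fragment in kb (horizontal axis, negative on the H19 side) for tested genes within 1 Mb, with described neighbours in red and other genes in grey. Igf2 at 35.4 kb is the highest and Lsp1 the lowest in both regions.

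The genes most alike to each neighbour were found as the 2 with the highest mean correlation over the regions, across 12 cortex and 15 striatum libraries after removing the genotype-by-sex means, among 13413 genes. They are a description, since libraries share depth and tissue makeup. Lsp1 was most like Klf13 (r = 0.83 in frontal cortex, 0.77 in striatum) and Arhgap22 (0.82 and 0.72). Ifitm10 was most like B3gat3 (0.91 and 0.94), and Ctsd like Atp5d (0.93 and 0.79) and Bsg (0.83 and 0.86). Cd81 was most like Tmsb4x (0.87 and 0.88) and Cspg4 (0.89 and 0.82), and Tssc4 like B2m (0.83 and 0.85) and Tmem176a (0.86 and 0.80). Klf13 and Arhgap22 had log2 fold changes of 0.01 and -0.03 in frontal cortex and -0.11 and -0.00 in striatum, and neither was called by edgeR. Of these values, only that of Klf13 in striatum had an unadjusted p under 0.05 (0.0366 by edgeR), beside 10% of all genes.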

How the data were processed

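The authors sequenced ribosome-depleted total RNA, used Trim Galore 0.5.0 for trimming and STAR for alignment to GRCm38, and deposited raw read counts per gene. Positions were taken from the GENCODE annotation of NCBIM37, the build of the deletion's coordinates. All columns were mapped to labelled samples. From the counts, edgeR 4.0.16 (R 4.3.3) was run on each region with TMM scaling, a filter of 1 CPM that every library had to reach, genotype and sex as terms, the quasi-likelihood test and Benjamini-Hochberg adjustment at 0.05. The likelihood ratio test of the study's methods, DESeq2 1.42.0 and limma 3.58.1 (voom), other scalings and filters, and leaving out each library were alternatives. Exact permutation tests used log2(CPM + 0.5). Neighbours under the filter were compared by summed counts (intervals from scipy 1.17.1). Their log2 fold changes when libraries were left out came from an edgeR fit of every gene with at least 1 count in the region. Leaving out library 15 for these sums and for Igf2 was chosen after seeing the data. The scripts' tests were checked on simulated data. Genes named were the 9 neighbours, Igf2 as reference, locus genes with an adjusted p under 0.05, and the 2 most alike genes, of which 1 is not reported here. R74862 and Ttr were named after their values were seen. The members and lists were chosen with earlier results of these data known. P-values set a difference against the spread between these libraries. The fits over both regions entered libraries as independent, because the labels do not say which share a mouse. Total counts of 23686945 to 33926904 make 1 CPM worth 23.7 to 33.9 reads.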

Additional observations from a re-analysis of the deposited data

Results flagged for a closer look

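Of 34 gene-by-group library sets with any spread, 4 had a highest or lowest library farther from the rest than Dixon's 95% critical value allows. Chance alone gives about 1 in 20 for normally distributed values. Sets of few reads, such as those of H19 and Ins2, are not of that kind, so the rate does not apply to them. In Igf2enh-/- striatum, library 15 was far above the others for Ins2 (gap over range 0.872, 0.639 CPM against 0.0820 for the next) and for H19 (0.563, 0.188 CPM against 0.0820). In wild-type striatum, library 14 was far above the others for Ins2 (0.760, 0.123 CPM against 0.0294), on 3 reads. In wild-type frontal cortex, library 8 was far below the others for Tssc4 (0.723, 18.8 CPM against 20.5).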

How the results depend on the processing

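No paired analysis was possible because the groups share no replicate numbers. Among the neighbours, 0 were called in frontal cortex under every alternative run, and in striatum 1, Lsp1, by the likelihood ratio test (adjusted p = 0.0241) and 1 by DESeq2 (0.0145), with 0 under the others; its log2 fold change stayed between -0.43 and -0.42 over the tool, scaling and filter alternatives. Genes called in frontal cortex (53) were 232 by the likelihood ratio test, 242 by DESeq2, 459 with no filter, and 8 to 99 leaving out 1 library. In striatum (5) they were 56, 112 and 10 under those settings, 3 with voom, 13 with filterByExpr, 3 without the sex term, and 3 to 8 leaving out 1 library. The cause was not tested. Some values changed sign, most of them near 0. In striatum, Ifitm10 was 0.0458 with voom and -0.13 to 0.16 leaving out 1 library (-0.10 to 0.16 in the permutation test), and Ctsd was 0.00022 without the sex term and -0.0497 to 0.0332 (-0.0487 to 0.0283). H19 was -0.55 to 0.65 (-0.0346 to 0.0547) and Ins2 -0.81 to 2.44 (-0.0256 to 0.16), with the lowest values without library 15. In frontal cortex Tssc4 was -0.00462 to 0.0463 (-0.00141 to 0.0441). The region-by-genotype term of Ifitm10 was -0.0234 to 0.27, and the wild-type region difference was -0.0486 to 0.14 for Lsp1 and -0.00367 to 0.0359 for Tssc4. Depth limits H19, Ins2, Ascl2 and Tspan32, at 0 to 17 reads per library.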
